A study of Neurospora crassa with 2 samples.

Results

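The clock-controlled genes (ccg) of Neurospora crassa were examined one by one in the wild type (WT) strain grown in constant darkness for 20 hr (DD20) and 12 hr (DD12). They are the 8 genes of the deposited table listed as ccg-1, ccg-6, ccg-8, ccg-9, ccg-13, ccg-14, ccg-15 and ccg-16, out of 10559 genes in all. Both time points share the same strain, which the study's methods give as bd and mating type a, and the same 2% glucose medium. The bd allele makes the conidiation rhythm easier to see and is carried by both groups. The polyA RNA of hyphae was sequenced, and the values are RPKM, the reads on a gene scaled by the length of its gene model and by the library total. The table holds 1 column per time point, so no difference between DD20 and DD12 has a replicate check and no p-value is given.

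In Neurospora the White Collar Complex of WC-1 and WC-2 activates frq, and the FRQ protein in turn inhibits the complex. The clock-controlled genes lie downstream of this loop. The first of them were isolated as transcripts whose level changes with the time of day, and many of those have their peak from late night to early morning. They encode unrelated products, among them enzymes, surface proteins, a metallothionein, a pheromone precursor and a transcription factor.

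The ccg genes did not move together. At DD20 ccg-14 and ccg-13 were 7.75-fold and 4.62-fold lower than at DD12, ccg-9 was 1.75-fold lower, and the other 5 differed by 1.06-fold or less. These folds are plain ratios of RPKM. On the scale log2((RPKM at DD20 + 1)/(RPKM at DD12 + 1)), used for all log2 ratios below and smaller than the true change for genes with low values, the ratios ran from -2.93 to 0.085. The minimum set for a comparison, an RPKM of 1 on average over both columns, was met by all 8 genes and by 7414 genes of the table. At DD20, 2 of the 8 were lower by 2-fold or more, against 2.33% of the 7414 genes, and 0 of 8 were higher by 2-fold or more, against 0.742%. The median log2 ratio was -0.0061 over the 8 and 0.15 over all 7414 genes. The value of -0.0061 lies between ccg-15 and ccg-16 and says little of the 3 lower genes. As bulk RNA was sequenced, fewer cells of a kind and less RNA per cell cannot be told apart in any of these values.

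**Figure D1:**
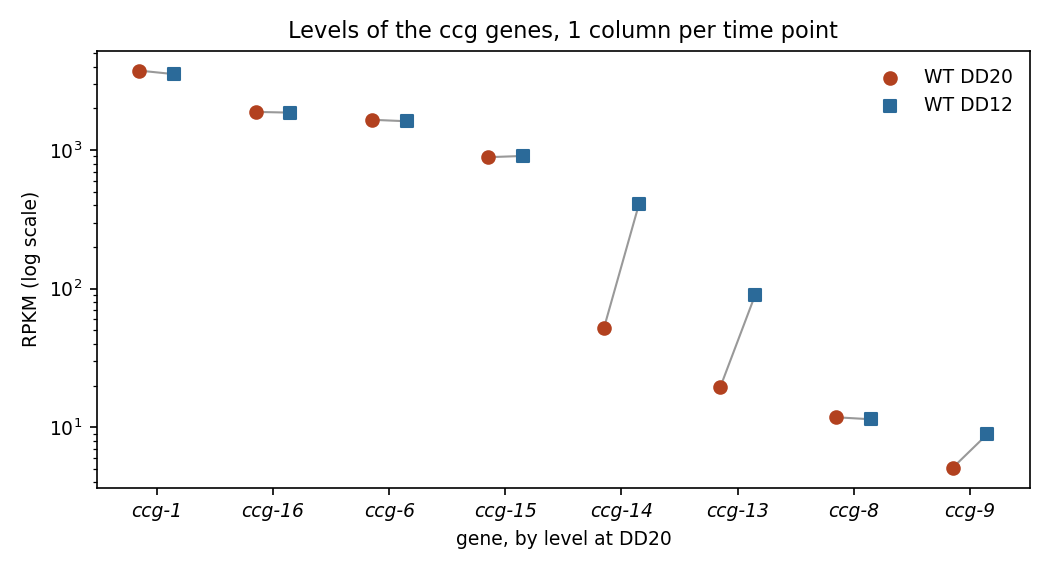
RPKM (log scale) of each ccg gene at DD20 (circles) and DD12 (squares), 1 value per time point, ordered by the level at DD20. The squares of ccg-9, ccg-13 and ccg-14 lie well above their circles, while the pairs of the other 5 genes are level.

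The levels covered a wide range. The highest was that of ccg-1, with 3748 RPKM at DD20 and 3534 RPKM at DD12. The lowest was that of ccg-9, with 5.09 RPKM at DD20 and 8.93 RPKM at DD12. The span from ccg-9 to ccg-1 was therefore 736-fold at DD20 and 396-fold at DD12. The order of the 8 genes was the same at both time points, namely ccg-1, ccg-16, ccg-6, ccg-15, ccg-14, ccg-13, ccg-8 and ccg-9. The gap between ccg-15 and ccg-14 was 17.0-fold at DD20 and 2.24-fold at DD12, and the gap between ccg-13 and ccg-8 was 1.64-fold at DD20 and 7.85-fold at DD12. The closest neighbours in this order at DD20 were ccg-16 and ccg-6, which lay 1.14-fold apart at DD20 and 1.15-fold at DD12. Without replicate columns there is no spread against which to set these gaps. Together the 8 genes made up 1.89% of the summed RPKM of all genes at DD20 and 2.02% at DD12.

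The reads behind each RPKM value were recovered from the steps between the values, which are whole reads scaled by gene length and depth. The library totals came to 29960356 reads at DD20 and 30712952 reads at DD12. All intervals below are 95% exact Clopper-Pearson intervals of the log2 ratio without the added 1. They were computed on reads divided by 2, since it is not stated whether both mates of a pair were counted, and they cover counting error only. They say nothing of the variation between cultures or RNA pools.

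The cell surface genes of the group included both of the genes that were 2-fold or more lower. ccg-14 encodes a small secreted protein of the cerato-platanin family, a kind of fungal surface protein also known as SnodProt1. It had 52.4 RPKM at DD20, from 3434 reads, and 406 RPKM at DD12, from 27276 reads. Its log2 ratio was -2.93, with a counting interval of -3.03 to -2.88. Only 5 of the 7414 genes had a lower log2 ratio. At DD20 ccg-14 ranked 1069 of 10559 genes by level, and at DD12 it ranked 171.

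ccg-13 is also named ncw-7 in the RefSeq annotation, the symbol of a non-anchored cell wall protein. It had 19.4 RPKM at DD20 and 89.7 RPKM at DD12. Its log2 ratio was -2.15, and 17 of the 7414 genes had a lower one. The gene length that gives whole reads was not unique for ccg-13 (371 nt, or a multiple up to 1113 nt, which is the whole RefSeq gene). The shortest length gave 216 reads at DD20 and 1022 at DD12, and the longest gave 648 reads at DD20 and 3066 at DD12. With the fewest reads, which give the widest interval, the counting interval was -2.52 to -1.90. At DD20 ccg-13 ranked 2583 of 10559 genes by level, and at DD12 it ranked 567. Both ccg-14 and ccg-13 thus ranked higher by level at DD12 than at DD20.

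ccg-15, which RefSeq also names acw-1, the symbol of a cell wall protein anchored to the membrane, showed no such difference in level. It had 889 RPKM at DD20 and 908 RPKM at DD12, a log2 ratio of -0.030. The reads were 72269 at DD20 and 75622 at DD12, and the counting interval was -0.050 to -0.0088. The interval lay below 0, but the difference was only 1.02-fold and smaller in size than the median log2 ratio over all genes, 0.15.

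**Figure D2:**
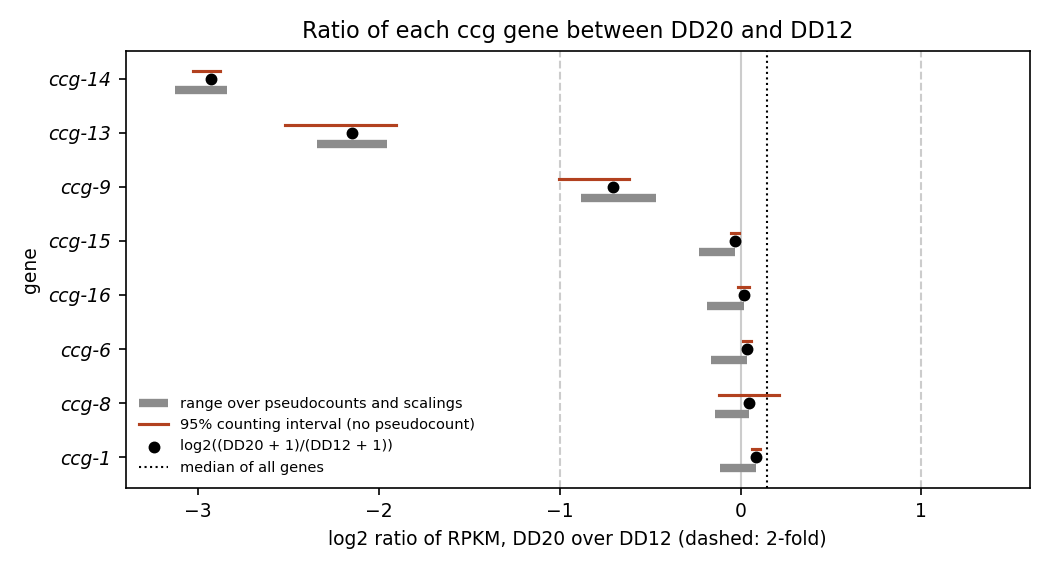
The log2 ratio of each ccg gene between DD20 and DD12 (points), with its counting interval (thin lines) and its range over the pseudocounts and scalings tried (thick bars). The points of ccg-14 (-2.93) and ccg-13 (-2.15) lie beyond the dashed 2-fold line with their intervals and ranges, ccg-9 (-0.71) lies short of it, and the other 5 lie next to 0 and to the left of the dotted median of all genes (0.15).

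ccg-9 and ccg-8 are the genes of the group with a known metabolic or regulatory role. ccg-9 encodes trehalose synthase and is needed for normal development of conidiophores, the aerial structures that bear the asexual spores. Its log2 ratio was -0.71, from 675 reads at DD20 and 1214 reads at DD12, with a counting interval of -1.01 to -0.61. The interval reaches just past 2-fold at its lower end. With ccg-9, 3 of the 8 ccg genes were 1.5-fold or more lower at DD20, against 6.66% of all genes. As its level is low, the added constant weighs on its ratio, which was -0.47 with 5 added in place of 1 and then short of 1.5-fold.

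ccg-8 encodes a transcription factor needed for the response to azole antifungal drugs, which block the synthesis of ergosterol. It had 11.8 RPKM at DD20, from 1178 reads, and 11.4 RPKM at DD12, from 1168 reads. The log2 ratio was 0.044, and the counting interval of -0.12 to 0.22 spanned 0. The direction of so small a difference was therefore not settled by these reads.

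The 3 most abundant ccg genes differed by 1.06-fold or less between the columns. ccg-1, also known as grg-1, is a gene repressed by glucose whose protein has no settled function. It ranked 7 of 10559 genes at DD20 and 10 at DD12. The study's methods give 2% glucose for liquid cultures and do not state how much was left at harvest. The reads were 69739 at DD20 and 67395 at DD12, and the log2 ratio was 0.085 with a counting interval of 0.063 to 0.11. ccg-16 had 1888 RPKM at DD20, from 38744 reads, and 1865 RPKM at DD12, from 39239 reads. Its log2 ratio was 0.017, and the counting interval of -0.011 to 0.046 spanned 0. ccg-6 had 1657 RPKM at DD20 and 1616 RPKM at DD12, with a log2 ratio of 0.036. Its length was not unique either, and the fewest reads its values allow, 74112 at DD20 and 74106 at DD12, gave a counting interval of 0.015 to 0.057.

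The signs of these small ratios depended on the scaling of the columns. The log2 ratios of ccg-1, ccg-6, ccg-8 and ccg-16 were above 0 as deposited and below 0 once the median over all genes (0.15) was subtracted, when they ran from -0.13 (ccg-16) to -0.064 (ccg-1). Under the same centring ccg-14 had -3.08, ccg-13 had -2.30 and ccg-9 had -0.85. A log2 ratio within 0.1 of 0, a limit chosen after the values were seen, was found in 5 of the 8 ccg genes and in 18.2% of all genes. This count rests on the scaling as deposited. After centring it was 1 of the 8, namely ccg-1, and 23.3% of all genes. Among the 152 genes that averaged an RPKM of 500 or more, the median log2 ratio was 0.38, with 115 above 0. Over all 7414 genes the median was 0.15, with 4909 above 0. As deposited, 15 of the 152 were within 0.1 of 0, and ccg-1, ccg-6, ccg-15 and ccg-16 were 4 of these 15. After centring the count was 13, of which 1 was a ccg gene.

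**Figure D3:**
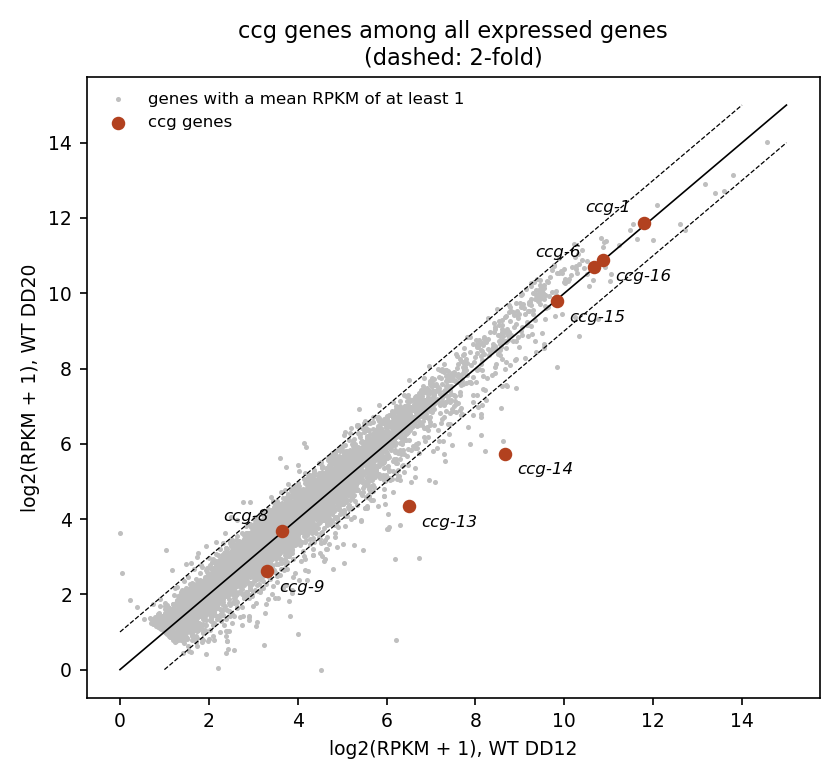
log2(RPKM + 1) at DD20 (vertical axis) against DD12 (horizontal axis) for the 7414 genes that met the minimum of 1 RPKM (grey) and the 8 ccg genes (named). ccg-14 and ccg-13 lie below the lower dashed 2-fold line, at the edge of the cloud, and the other 6 lie inside the dashed lines.

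The genes next to the ccg genes in the RefSeq annotation of assembly NC12 were looked up for their values. None of the 16 adjacent genes overlaps its ccg gene. The minimum level was met by 8 of them, with log2 ratios between -0.36 and 0.54, and 0 of the 8 reached 2-fold. With 2.33% of all genes 2-fold or more lower and 0.742% higher, a count of 0 in 8 is near the background and is no result about these genes. The neighbours of ccg-14 were col-26, with 13.8 RPKM at DD20 and 11.5 RPKM at DD12, and NCU07786, with 0.297 RPKM at DD20 and 0.464 RPKM at DD12. One neighbour of ccg-13 was gel-3, with 456 RPKM at DD20 and 494 RPKM at DD12. The other, NCU15078, was listed at 0 in both columns.

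The genes with the most similar pair of values were found by the distance between their log2(RPKM + 1) at DD20 and DD12. A pair of columns is little to judge likeness on, so the distances only say which genes lie nearby. Nearest to ccg-14 was NCU11356, with 66.7 RPKM at DD20 and 390 RPKM at DD12, at a distance of 0.35. NCU04583 (0.47) and NCU08155 (0.73) followed. Nearest to ccg-13 were NCU02932, NCU04016 and NCU09160, at distances of 0.52 to 0.54. For ccg-16, the ccg gene with the log2 ratio closest to 0, the nearest genes were cmt (0.20), ccg-6 (0.28) and hex-1 (0.34). Of these, cmt is itself a clock-controlled gene.

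Clock-controlled genes that go by other symbols were set beside the ccg genes. The list holds gpd-1 (ccg-7, glyceraldehyde-3-phosphate dehydrogenase of glycolysis), eas (ccg-2, the hydrophobin that coats conidia), cmt (ccg-12, copper metallothionein), ccg-4 (a pheromone precursor of mating type A strains), con-6 and con-10 (conidiation), al-3 (carotenoid synthesis) and vvd (a blue light photoreceptor). The minimum level was met by 7 of these 8 genes. All 7 had a log2 ratio below 0, against 33.8% of all genes, with a median of -0.63. Of the 7, 2 were lower at DD20 by 2-fold or more, against the 2.33% of all genes given above. vvd, which is among those 2, and con-10 were below 1 RPKM at DD20 and met the minimum only through DD12. Their place in these counts is therefore tied to the direction of their ratios. Several genes of the list had also been looked at before in these data, so the list is not independent evidence of a direction.

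The abundant genes of this list differed by less than 2-fold. gpd-1 had 9120 RPKM at DD20 and 14155 RPKM at DD12, a log2 ratio of -0.63. eas had 7682 RPKM at DD20 and 9199 RPKM at DD12, a log2 ratio of -0.26. cmt had 1651 RPKM at DD20 and 1924 RPKM at DD12, a log2 ratio of -0.22. cmt, with a level close to that of ccg-16 and ccg-6, was thus further from a log2 ratio of 0 than either of them.

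The other genes of the list had lower levels. vvd had 0.923 RPKM at DD20, from 87 reads, and 15.2 RPKM at DD12, from 1466 reads. Its log2 ratio was -3.07, which the added 1 brings close to that of ccg-14. As a plain ratio vvd was 16.4-fold lower at DD20, against 7.75-fold for ccg-14. Without the added 1 the log2 ratios were -4.04 for vvd and -2.95 for ccg-14. con-6 had 1.64 RPKM at DD20, from 38 reads, and 6.43 RPKM at DD12, from 153 reads. con-10 had 0.790 RPKM at DD20 and 2.31 RPKM at DD12, and al-3 had 17.5 RPKM at DD20 and 25.0 RPKM at DD12, a log2 ratio of -0.49. The log2 ratio of con-10 was -0.89 and its counting interval, with the fewest reads that its values allow, was -4.89 to 0.93. Its length was not unique. The shortest, 169 nt, gave 4 reads at DD20 and 12 at DD12, and the longest, 676 nt, gave 16 and 48. The interval for the longer lengths, which would be narrower, was not computed. By the plain ratio of RPKM con-10 was 2.93-fold lower at DD20, but with the added 1 it fell short of 2-fold. ccg-4 had 0.0478 RPKM at DD20 and 0.0466 RPKM at DD12, which is 1 to 3 reads in each column, in a strain of mating type a.

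**Figure D4:**
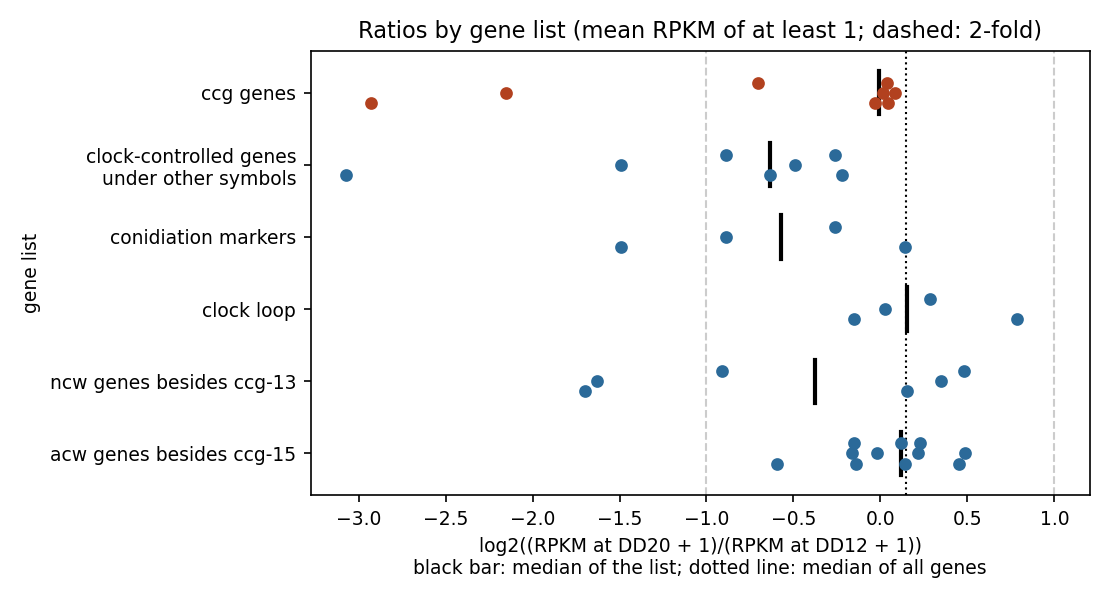
Log2 ratio between DD20 and DD12 of every gene that met the minimum level in each list (points), with the median of the list (black bars) and of all genes (dotted line, 0.15). As deposited, 5 ccg genes lie next to 0 with ccg-9, ccg-13 and ccg-14 to their left, whereas the 7 other clock-controlled genes are spread from -3.07 to -0.22.

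The labels give hyphae as the source, and con-6, con-8, con-10, con-13, fl and eas were taken as markers of conidiation. The minimum level was met by 4 of these 6, all but con-8 and con-13. The log2 ratio was below 0 in 3 of the 4 (con-6, con-10 and eas), against 33.8% of all genes. Of these, con-10 met the minimum only through DD12. Its counting interval given above spanned 0, but it rests on the fewest reads that the values of con-10 allow. Among the 4, 1 gene, con-6 at -1.49, was 2-fold or more lower at DD20, against 2.33% of all genes. con-6, con-10 and eas are also in the list of other clock-controlled genes. The 5 markers other than eas summed to 10.5 RPKM at DD20 and 16.9 RPKM at DD12, and fl was the largest part of both sums. con-13 was near 0, with 0.0326 RPKM at DD20 and 0.318 RPKM at DD12, and con-8 had 0.346 RPKM at DD20 and 0.944 RPKM at DD12. fl, the regulator of conidiophore development, had 7.72 RPKM at DD20 and 6.90 RPKM at DD12, a log2 ratio of 0.14. The part of conidiation in the ratios of the ccg genes was not tested.

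The genes of the clock loop differed less than ccg-14 and ccg-13. frq had 6.89 RPKM at DD20 and 5.47 RPKM at DD12, with a counting interval of the log2 ratio of 0.13 to 0.55. wc-1 had 6.64 RPKM at DD20 and 6.52 RPKM at DD12, and wc-2 had 17.9 RPKM at DD20 and 20.0 RPKM at DD12. frh, whose protein is the partner of FRQ, had 22.5 RPKM at DD20 and 12.7 RPKM at DD12, the largest log2 ratio of the 4 at 0.78. Its counting interval was 0.71 to 0.96, and 209 of the 7414 genes had a higher log2 ratio. Of the 4, 1 gene, frh, was 1.5-fold or more higher at DD20, against 623 of the 7414 genes, and 0 were 1.5-fold or more lower. None of the 4 reached 2-fold, a count near the 2.33% of all genes that were lower and the 0.742% that were higher. This 2-fold count is no result about these genes.

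Genes that act near single ccg genes were compared as well. For ccg-9, the trehalases were taken, the enzymes that split trehalose. tre-2 had 54.5 RPKM at DD20 and 74.9 RPKM at DD12, and tre-1 had 1.59 RPKM at DD20 and 1.30 RPKM at DD12. The log2 ratio was -0.45 for tre-2 and 0.17 for tre-1. For ccg-8, the 3 genes with an ergosterol symbol were taken, of which 1 was higher at DD20 by 2-fold or more, against 0.742% of all genes. The highest ratio was that of erg-1, with 208 RPKM at DD20 and 89.5 RPKM at DD12, a log2 ratio of 1.20, while erg-3 had the lowest, with 68.4 RPKM at DD20 and 71.2 RPKM at DD12, at -0.058.

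The wall protein families of ccg-13 and ccg-15 were added after the values were seen. Of the 6 other ncw genes, 2 were lower at DD20 by 2-fold or more, namely ncw-5 (-1.70) and ncw-4 (-1.63), against 2.33% of all genes, and the other 4 had log2 ratios of -0.91 to 0.48. Of the 11 other acw genes, 0 reached 2-fold in either direction, with log2 ratios of -0.59 to 0.49, a count near the 2.33% of all genes that were lower and the 0.742% that were higher.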

How the data were processed

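The authors deposited RPKM values for WT at DD20 and DD12, 1 column each. The submitters' processing notes name CASAVA 1.8 and HISAT, and the study describes duplicate RNA samples, each pooled from independent samples. The counting method, strand handling, genome build and whether a column combines the duplicates are not given in the sources used here, so reads of antisense genes cannot be told apart.

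The table was read with Python 3.11.15 and pandas 2.3.3. Symbols came from RefSeq (assembly NC12), which matched 10526 of 10559 genes. No coordinates or sequences are reported. The trehalose list also named tps-1, which matched no gene. Library totals were those at which RPKM times length gave whole reads. All 8666 genes tried (above 0 in both columns, mean RPKM under 1000) gave whole reads for at least 1 length up to the RefSeq span, within 0.003 reads or a relative 1.5e-07. The steps were tested on simulated data.

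Genes were compared by log2((RPKM at DD20 + 1)/(RPKM at DD12 + 1)) where the mean RPKM was 1 or more. No test was run. The text names the 8 ccg genes, the genes of the lists, the highest and lowest erg gene, the 3 nearest genes of each ccg gene past 2-fold and of the one closest to 0, and neighbours by position. The members and lists were chosen with earlier results of these data known. Pseudocounts of 0.1 and 5, centred and rescaled columns, other minimum levels and a 1.5-fold limit were tried.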

Additional observations from a re-analysis of the deposited data

How the results depend on the processing

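No paired analysis was possible because each time point is a single column, which also leaves no replicate to omit. Under every setting run, 2 ccg genes were 2-fold or more lower at DD20 and 0 were higher, except that 3 were lower at a limit of 1.5-fold. The log2 ratio of ccg-13 stayed between -2.35 and -1.95. That of ccg-14 was -2.84 and that of ccg-9 was -0.47 with a pseudocount of 5. Centred on the median of all genes, the ratios were -3.08 for ccg-14, -0.18 for ccg-15, -0.13 for ccg-16, -0.11 for ccg-6 and -0.064 for ccg-1. Rescaled to equal sums over all genes, they were -0.090 for ccg-15, -0.043 for ccg-16, -0.025 for ccg-6 and 0.024 for ccg-1. Rescaled without the 10 most abundant genes, of which ccg-1 is one, they were -3.13 for ccg-14, -0.23 for ccg-15, -0.18 for ccg-16, -0.17 for ccg-6, -0.14 for ccg-8 and -0.12 for ccg-1. These shifts follow from the construction of the settings. The median of the ccg genes was -0.16 when centred, -0.21 under the rescaling that leaves out the 10 most abundant genes, and 0.017 with a minimum mean of 10 RPKM, where ccg-9 drops out. The count of ccg genes within 0.1 of a log2 ratio of 0, a comparison chosen after seeing the data, was 1 when centred, 0 under the rescaling that leaves out the 10 most abundant genes and 5 with either pseudocount or with equal sums over all genes. Of the other clock-controlled genes, 3 were 2-fold or more lower at DD20 with a pseudocount of 0.1, when centred and under the rescaling that leaves out the 10 most abundant genes, 1 was with a pseudocount of 5, 0 were with a minimum mean of 10 RPKM (vvd and con-6 then fall short of the minimum) and 4 were lower at a limit of 1.5-fold.

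Counting intervals are the only error available, and DD20 and DD12 alone do not test a rhythm.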
